A study of Mus musculus with 6 samples.

Results

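Paraspeckle proteins and nuclear long noncoding RNAs were followed through RNA-seq libraries of mouse Th17 cultures that carried extra ADAR2. The members were the genes named Neat1, Malat1, Nono, Sfpq, Pspc1, Matr3 and Elavl1 in GENCODE vM21, 7 of 55450 genes in the deposited tables. All 7 were among the 14958 genes with enough reads to be tested. Naïve CD4 T cells of 2 wild-type mice aged 8 to 12 weeks were activated with 0.25 µg/mL anti-CD3ε and 1 µg/mL anti-CD28 and driven toward the Th17 state with 0.1 ng/mL TGF-β and 20 ng/mL IL-6. After 24 h they received a murine stem cell virus (MSCV) retrovirus, and polarization went on for 48 h with 0.3 ng/mL TGF-β and 20 ng/mL IL-6. The virus was empty (empty vector), carried ADAR2 (ADAR2 WT), or carried an enzymatically dead ADAR2 (ADAR2 E396A), and cells were taken at 72 h. Each group had 2 libraries, 1 from each mouse, called donors A and B here, and every group was infected and polarized alike. How many cells of a culture carried the virus is not given in the sources used here, so each level is an average over the culture. Which library belongs to which group rests on the deposited tables' names and shared columns, and which libraries share a donor on the authors' deposited statistics.

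Paraspeckles are nuclear bodies that form around the long form of the noncoding RNA Neat1. The proteins NONO, SFPQ and PSPC1, relatives in the DBHS (Drosophila behaviour, human splicing) family, bind that RNA as dimers and are core parts of the body. ADAR2 turns adenosines of double-stranded RNA into inosines, and NONO, SFPQ and the nuclear matrix protein MATR3 are known as a complex that holds heavily edited RNA in the nucleus. Malat1, the noncoding neighbour of Neat1, gathers in nuclear speckles, which store splicing factors. ELAVL1, also called HuR, binds AU-rich RNA and stabilizes many transcripts.

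Malat1 and the long form of Neat1 lack a conventional poly(A) tail. The sequence at their ends is shown because it sets Neat1 and Malat1 apart from the 5 protein-coding members and bears on which libraries can hold their reads. U-rich motifs and a genomically encoded A-rich tract there are known to fold into a triple helix that protects the RNA. The windows are written as DNA on the transcript strand, from the GENCODE vM21 transcripts (GRCm38, the same assembly as mm10), on the minus strand at chr19:5795982-5796080 for Malat1 and chr19:5824708-5824812 for Neat1. In the annotated transcripts 292 bases follow the Malat1 window and 0 follow that of Neat1. The capitals mark the 3 stretches of at least 10 bases that the last 450 bases of Malat1 and the last 150 of Neat1 have in common.
Malat1: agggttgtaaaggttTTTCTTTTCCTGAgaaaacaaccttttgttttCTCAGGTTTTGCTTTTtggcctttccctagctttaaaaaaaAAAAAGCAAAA
Neat1: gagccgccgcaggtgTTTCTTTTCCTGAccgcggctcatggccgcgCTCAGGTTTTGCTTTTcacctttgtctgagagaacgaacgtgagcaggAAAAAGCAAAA
On their own strand, 35 of 141767 annotated transcripts (0.025%) held TTTCTTTTCCTGA, 2 (0.001%) held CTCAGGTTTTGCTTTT and 618 (0.436%) held AAAAAGCAAAA. The 2 that held all of them in this order, with at most 60 bases between neighbours, were 1 transcript of Malat1 and 1 of Neat1. The stretches were taken from these genes, so that match was fixed in advance. No other transcript could hold all of them, since the second stretch alone occurred in only 2. A match describes the letters, not a structure in these cells.

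Neat1 also has a short form that ends early at a poly(A) signal, and only the long form builds paraspeckles. The last 60 bases of the annotated short form, at chr19:5842307-5842366 on the minus strand, are shown with the signal AATAAA in capitals, since it is the site that divides the forms.
Neat1 short form: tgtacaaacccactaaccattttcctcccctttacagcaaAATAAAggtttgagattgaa
The annotated short form is 3004 bases long and the long form 20771. The short form ends at base 3172 of the long form, so 84.73% of the long form lies beyond that end. The deposited values are 1 number per gene, so reads of the forms cannot be separated, and a change from one form to the other would show only in part. Libraries were made from ribosome-depleted RNA, per the labels' protocols, so RNA without a poly(A) tail was not selected against.

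Adarb1, which encodes ADAR2, was the check of which libraries carried a construct. It was at 3687 and 3346 normalized read counts in the empty-vector libraries (donor A, then B), at 18499 and 19077 under ADAR2 WT, and at 15709 and 14982 under ADAR2 E396A. Being high with both constructs, it cannot check which of them a library carried, which rests on the deposited tables' names. Reads assigned to genes ranged from 16496328 to 21897166 per library. Of 11 CD4 T cell and Th17 markers, all were measured, with Cd4 between 12062 and 16063 normalized read counts. With ADAR2 WT 9 of the 11 had a negative estimate (median log2 fold change -0.30) and 5 lay below the empty vector in both libraries, 45.5% beside 18.5% of all tested genes. With ADAR2 E396A 6 were negative (median -0.0013) and 1 lay below in both, 9.09% beside 11.9% of all tested genes. Positive estimates made up 18.2% of the list with ADAR2 WT, beside 49.6% of all tested genes. With ADAR2 E396A they made up 45.5% beside 46.9%. Thy1, a T cell surface protein, was the 1 marker of this list that passed. Its level was 24405 and 21511 in empty-vector cultures, 10443 and 9635 under ADAR2 WT and 11454 and 11576 under ADAR2 E396A, log2 fold changes of -1.19 and -0.99 (limma adjusted p = 0.00047 and 0.0021). The 2 markers with a positive estimate under ADAR2 WT were the Th17 cytokine genes Il17a and Il17f, and neither passed. Il17a was at 2447 and 9317 with the empty vector (donors A and B) and at 6629 and 17952 under ADAR2 WT. Under ADAR2 E396A it was at 2626 and 18220. Il17f was at 6674 and 14503 with the empty vector, 10243 and 20801 under ADAR2 WT, and 5223 and 31505 under ADAR2 E396A. Both genes thus rose with ADAR2 WT within each donor, and differed widely between donors. The summed level of 7 CD8 and NK cell markers was 1484 to 1679 with the empty vector and 511 to 628 with ADAR2 WT. It was 1197 to 1704 with ADAR2 E396A, with Ncr1 at 0 throughout. Klrc1 had the highest mean of the 7, at 761. Of the 5 tested, 4 had a negative estimate with ADAR2 WT and 3 passed as lower, beside 0.816% of all tested genes called. Cd8b1 went the other way, from 150.6 and 112.5 with the empty vector to 158.9 and 142.5 with ADAR2 WT. B cell, myeloid, stromal and erythroid markers summed to at most 56.4 per list and library. The part of such shifts in the values below was not tested, and in bulk libraries fewer cells of a type and less RNA per cell cannot be told apart.

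Levels between genes were compared per kb of annotated exon. Malat1 was highest, with a mean of 5976 normalized reads per kb (5014 to 7179 over the 6 libraries), rank 95 of the 14958 tested genes. Nono followed at 1812 (1756 to 1879) and Sfpq at 1381 (1303 to 1461). Elavl1 stood at 340 (329 to 362), Matr3 at 254 (236 to 277) and Pspc1 at 198 (172 to 233). Neat1 was lowest of the 7 at 110 (93.5 to 133), rank 6393. The ranges of neighbours in this order did not overlap, so the order held in all 6 libraries. Neat1's place depends on its length, since reads of the short form are divided here by the whole gene.

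**Figure D1:**
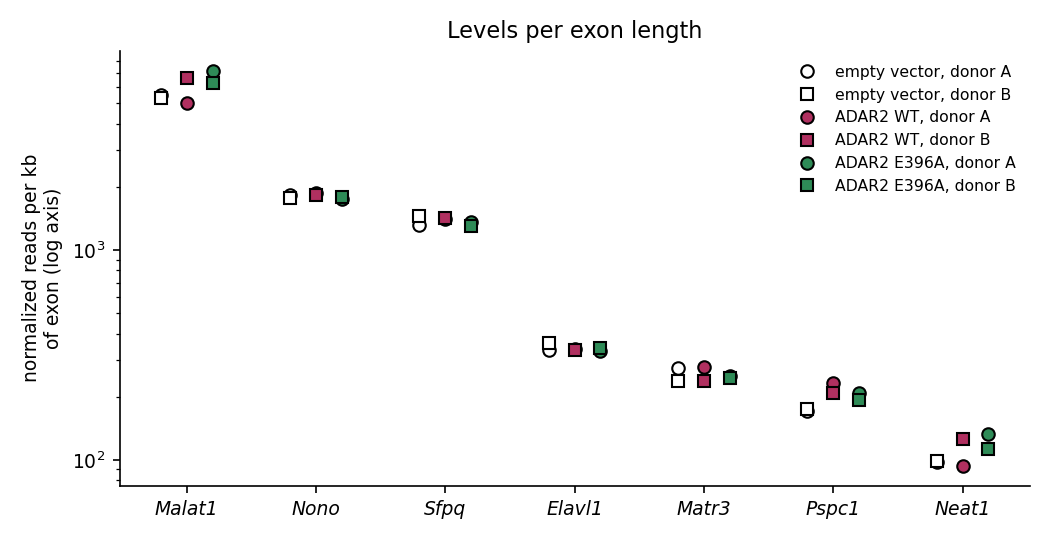
Normalized read count per kb of annotated exon (log axis) of the 7 genes in the 6 libraries, ordered by mean. Circles are donor A and squares donor B, and the fill gives the group. Malat1 lies between 5014 and 7179 and Neat1 between 93.5 and 133, with no overlap between genes that neighbour each other in the order.

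The share of the DBHS family that each member took was then set out, since its proteins pair with each other. Nono made up 52.1% to 55.2% of the summed per-kb level of Nono, Sfpq and Pspc1, and Sfpq 39.6% to 42.8%. Pspc1 was the minor transcript, with 5.15% and 5.11% with the empty vector in donors A and B, 6.60% and 6.02% under ADAR2 WT, and 6.24% and 5.86% under ADAR2 E396A. The 4 libraries with a construct all held a larger Pspc1 share than the 2 without. How many of all tested genes have such an order was not counted. Since Nono and Sfpq varied little, the share largely restates the Pspc1 level. That level passed against the empty vector neither with ADAR2 WT nor with ADAR2 E396A (limma adjusted p = 0.109 and 0.999). Transcript shares say nothing of protein amounts.

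Members differed in how steady they were. The highest library exceeded the lowest 1.43-fold for Malat1, 1.42-fold for Neat1 and 1.36-fold for Pspc1. The same ratio was 1.17 for Matr3, 1.12 for Sfpq, 1.10 for Elavl1 and 1.07 for Nono. The median ratio was 1.21 over 6090 genes with a mean of at least 500 normalized read counts. Malat1, Neat1 and Pspc1 lay above that median and the other 4 members below it.

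**Figure D2:**
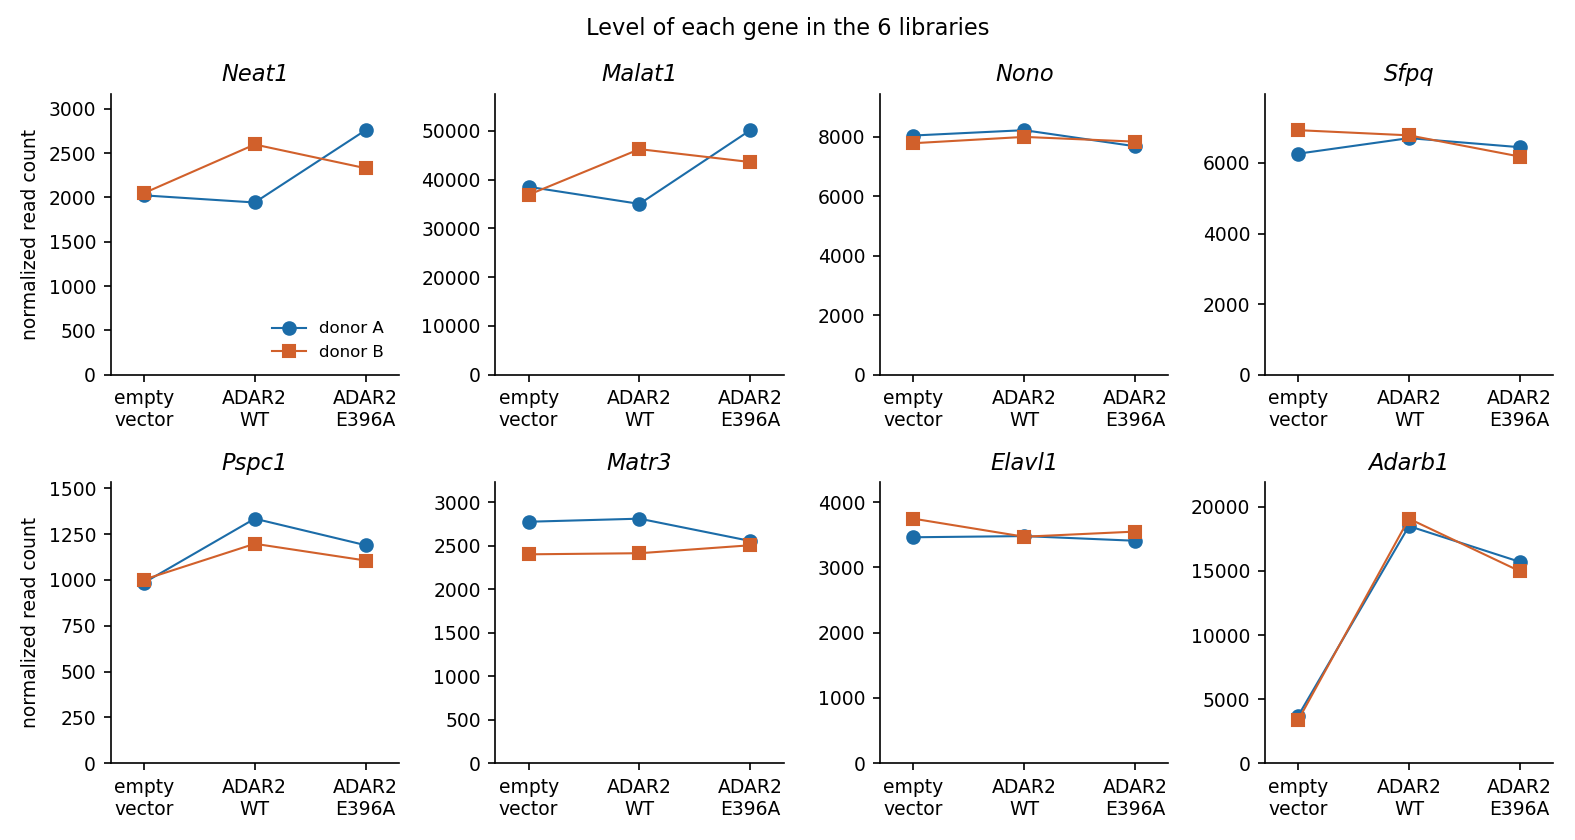
Normalized read count (axis from 0) of the 7 genes and of Adarb1 in each library, by group. Lines join the libraries of a donor, with circles for donor A and squares for donor B. Pspc1 is lowest in both empty-vector libraries, and the Neat1 and Malat1 lines of the donors cross, while Adarb1 rises with both constructs.

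The active construct, ADAR2 WT, was set against the empty vector to see which transcripts differed when the active enzyme was added. None of the 7 members passed limma's test across all genes at an adjusted p under 0.05, where 0.816% of the tested genes did (122 of 14958), and 2108 genes had an unadjusted p under 0.05, among them 1 member, Pspc1. edgeR and DESeq2 on the recovered reads likewise called 0 members in each of the 3 comparisons. Pspc1 came nearest and was the only member of the 7 whose libraries did not overlap between these groups. Both libraries with ADAR2 WT lay above both with the empty vector for that 1 member, as for 18.7% of all tested genes. No member lay below in both, against 18.5%.

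Pspc1 (ENSMUSG00000021938.12, chromosome 14, 56720710 to 56778316) is the least abundant DBHS transcript here. It was at 984 and 1001 normalized read counts with the empty vector in donors A and B, resting on 941 and 1024 reads. With ADAR2 WT it was at 1334 and 1197, and with ADAR2 E396A at 1189 and 1105. For Pspc1 the empty-vector libraries were lowest, the ADAR2 E396A libraries next and the ADAR2 WT libraries highest, with no overlap between groups. The constructs were barely apart, at 1197 for ADAR2 WT in donor B and 1189 for ADAR2 E396A in donor A. The share of all tested genes with such an order was not counted. The log2 fold change with ADAR2 WT was 0.35 (SE 0.08, 95% interval 0.16 to 0.53), 0.44 in donor A and 0.26 in donor B. It did not pass after adjustment over all genes (limma adjusted p = 0.109). Pspc1 passed under 4 of 18 alternatives. It did so with the 4 libraries of the comparison alone (limma adjusted p = 0.00288), where 1237 genes passed beside 122 in the main fit. The remaining passes came without donor B's empty-vector library or without either ADAR2 E396A library, fits that left 1 library in a group. Its log2 fold change was 0.43 without donor B's empty-vector library and 0.35 in the other 3 of these settings. In the authors' deposited table its log2 fold change, with the sign turned to construct over empty vector, was 0.35 with an adjusted p of 0.292.

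The partners of Pspc1 had estimates near 0. Nono (ENSMUSG00000031311.17, chromosome X, 101429318 to 101448591) was at 8043 and 7784 normalized read counts in the empty-vector libraries, 8222 and 7996 under ADAR2 WT, and 7681 and 7837 under ADAR2 E396A. Its log2 fold change with ADAR2 WT was 0.035 (SE 0.06, 95% interval -0.10 to 0.17, limma adjusted p = 0.838). That interval reaches at most a 1.13-fold rise and a fall to 0.931 of the empty-vector level. Sfpq (ENSMUSG00000028820.13, chromosome 4, 127021324 to 127037013), which also acts in splicing and transcription, was at 6262 and 6928 in the empty-vector libraries, 6703 and 6782 under ADAR2 WT, and 6446 and 6181 under ADAR2 E396A. Its groups overlapped in both comparisons with the empty vector, and its log2 fold change with ADAR2 WT was 0.034 (SE 0.07, 95% interval -0.12 to 0.19, limma adjusted p = 0.866). A noncoding gene, Gm12940, overlaps 4.55% of the Sfpq exons on the same strand and drew 820 reads over the 6 libraries, so a small part of Sfpq reads may be assigned elsewhere.

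Matr3 and Elavl1 also had estimates near 0 with overlapping groups. Matr3 (ENSMUSG00000037236.16) was at 2776 and 2402 normalized read counts in the empty-vector libraries, 2812 and 2414 under ADAR2 WT, and 2555 and 2506 under ADAR2 E396A. Donor A exceeded donor B in each group, and the groups overlapped. The log2 fold change of Matr3 with ADAR2 WT was 0.013 (SE 0.07, 95% interval -0.16 to 0.18, limma adjusted p = 0.958). The annotated gene Gm28285 shares 17.3% of the Matr3 exons on the same strand, which makes Matr3 counts less certain than those of the other members. Elavl1 (ENSMUSG00000040028.10, chromosome 8, 4285382 to 4325413) was at 3461 and 3746 in the empty-vector libraries, 3479 and 3470 under ADAR2 WT, and 3408 and 3548 under ADAR2 E396A. Its log2 fold change with ADAR2 WT was -0.052 (SE 0.06, 95% interval -0.20 to 0.10, limma adjusted p = 0.768). Ccl25 overlaps 1.97% of the Elavl1 exons on the opposite strand.

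The noncoding members had estimates of opposite sign in the 2 donors. Neat1 (ENSMUSG00000092274.3, chromosome 19, 5824708 to 5845478) was at 2023 normalized read counts in the empty-vector and 1943 in the ADAR2 WT library of donor A, and at 2049 and 2597 in donor B. Malat1 (ENSMUSG00000092341.3, chromosome 19, 5795690 to 5802672) was at 38523 and 35014 in donor A, and at 36889 and 46242 in donor B. For both RNAs the ADAR2 WT libraries lay on either side of the empty-vector libraries. The log2 fold change with ADAR2 WT was 0.14 for Neat1 (SE 0.13, 95% interval -0.16 to 0.44, limma adjusted p = 0.673), composed of -0.059 in donor A and 0.34 in donor B. Malat1 had 0.094 (SE 0.13, 95% interval -0.19 to 0.38, limma adjusted p = 0.782), composed of -0.14 and 0.33. Without donor B's ADAR2 WT library the estimates were -0.12 and -0.17, so the sign rests on that library.

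The dead construct, ADAR2 E396A, was set against the empty vector to see what the protein did without its catalytic activity. No member of the 7 passed, where 0.0134% of the tested genes did (2 of 14958, Adarb1 higher and Thy1 lower), and 582 genes had an unadjusted p under 0.05, among them 3 members. Both libraries with ADAR2 E396A lay above both with the empty vector for 3 members, Neat1, Malat1 and Pspc1, as for 11.5% of all tested genes. None lay below in both, against 11.9%.

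Neat1 was at 2759 and 2330 normalized read counts with ADAR2 E396A in donors A and B, against 2023 and 2049 with the empty vector. Malat1 was at 50133 and 43597, against 38523 and 36889. Both RNAs were above the empty vector in both donors, more so in donor A. The log2 fold change was 0.32 for Neat1 (SE 0.13, 95% interval 0.014 to 0.62) and 0.31 for Malat1 (SE 0.13, 95% interval 0.024 to 0.60), each with a limma adjusted p of 0.999. Without donor B's ADAR2 E396A library they were 0.55 and 0.50 and passed (limma adjusted p = 0.000122 and 4e-05), a fit in which the lone remaining library is assumed to vary like the other groups. In the authors' deposited table, with the sign turned, Malat1 had 0.31 (p = 0.0122) and Neat1 0.32 (p = 0.038), neither passing there after adjustment. Long intergenic noncoding RNAs other than Gm26917, which holds ribosomal RNA sequence, made up 0.561% of assigned reads in donor A's ADAR2 E396A library, the highest of the 6 libraries, against 0.434% in donor A's ADAR2 WT library, the lowest. Malat1 alone made up 0.260% and 0.178% of assigned reads in those libraries, and the part of library makeup in these values was not tested.

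Pspc1 had a log2 fold change of 0.21 with ADAR2 E396A (SE 0.08, 95% interval 0.024 to 0.39, limma adjusted p = 0.999), 0.27 in donor A and 0.14 in donor B. The other 4 members had estimates between -0.061 for Sfpq and -0.028 for Nono, each with an interval that spans 0. That of Nono was -0.028 (95% interval -0.17 to 0.11), that of Matr3 -0.029 (-0.20 to 0.14) and that of Elavl1 -0.050 (-0.20 to 0.10). The comparisons with ADAR2 WT and ADAR2 E396A share the empty-vector libraries, so a like sign in both is not independent.

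**Figure D3:**
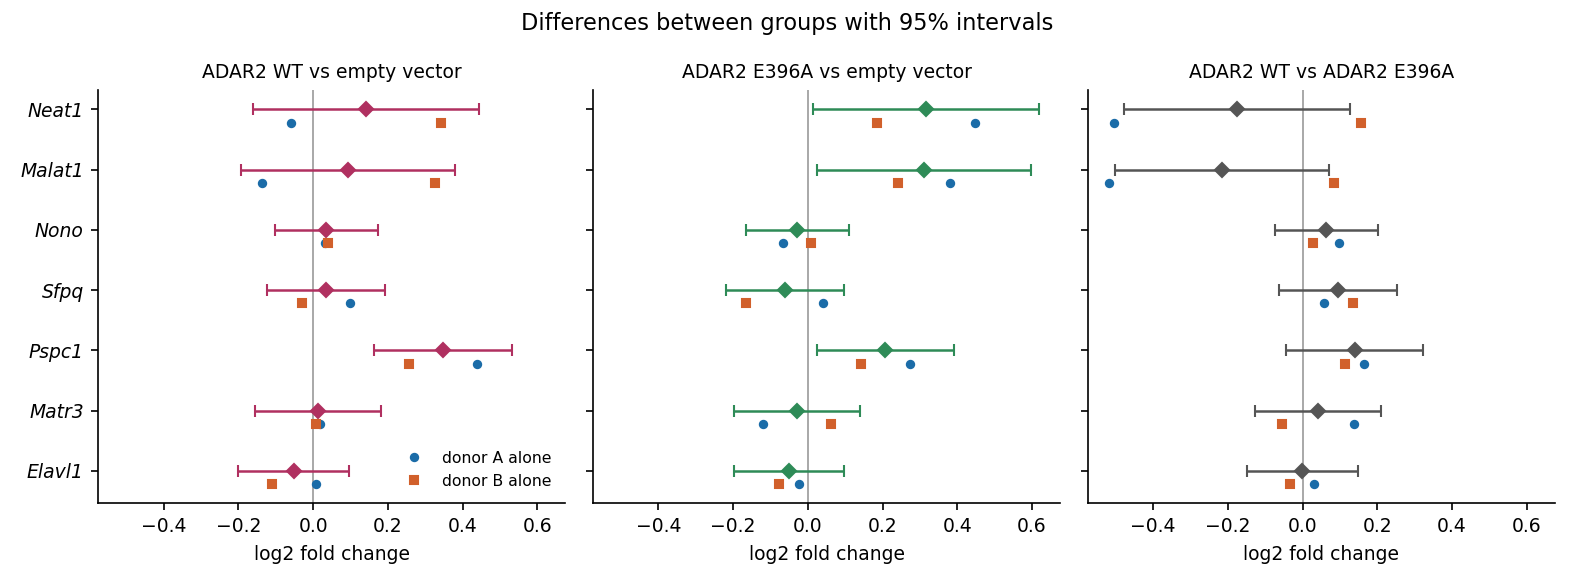
Log2 fold change of each gene in the 3 comparisons. Diamonds are limma estimates and bars their 95% intervals, with the difference within donor A (circle) and donor B (square) beneath. For Neat1 and Malat1 the donors lie on opposite sides of 0 in the comparisons that involve ADAR2 WT, and the Pspc1 interval with ADAR2 WT runs from 0.16 to 0.53.

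The constructs were set directly against each other to ask what differed with the catalytic residue. No member passed, where 0.0669% of the tested genes did (10 of 14958), and 1853 genes had an unadjusted p under 0.05, of which 0 were members. Adarb1 itself was higher with ADAR2 WT by 0.29 on the log2 scale (SE 0.07, limma adjusted p = 0.161), so dose and residue cannot be told apart. Nono, Sfpq and Pspc1 were higher in both libraries with ADAR2 WT than in both with ADAR2 E396A, 3 of 7 members against 19.4% of all tested genes. None was lower in both, against 17.3%. The log2 differences were 0.064 for Nono (limma adjusted p = 0.705), 0.095 for Sfpq (limma adjusted p = 0.609) and 0.14 for Pspc1 (SE 0.08, 95% interval -0.044 to 0.32, limma adjusted p = 0.520). Matr3 had 0.042 and Elavl1 -0.0012.

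Neat1 and Malat1 again divided by donor in this contrast. In donor A they were lower with ADAR2 WT than with ADAR2 E396A, by -0.51 and -0.52 on the log2 scale, and in donor B they were at 0.16 and 0.085. The estimates were -0.17 for Neat1 (SE 0.13, limma adjusted p = 0.625) and -0.22 for Malat1 (SE 0.13, limma adjusted p = 0.522). Without donor B's ADAR2 E396A library both were at -0.41 and passed (limma adjusted p = 0.0132 and 0.00191). Without donor A's ADAR2 WT library they were 0.092 and 0.051, and without donor A's ADAR2 E396A library Neat1 was at 0.057.

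Neat1 and Malat1 followed each other from library to library. The ratio of Malat1 to Neat1 reads was 19.0, 18.0 and 18.2 in donor A with the empty vector, ADAR2 WT and ADAR2 E396A, and 18.0, 17.8 and 18.7 in donor B. It averaged 18.3 ± 0.48 (SD, n = 6 libraries) and does not depend on how libraries are scaled. Its highest value exceeded its lowest 1.07-fold, where each RNA alone varied 1.42-fold or 1.43-fold. Across the 6 libraries Pearson's r between the log2 levels was 0.984 and Spearman's rho 0.943, with an r of 0.966 over the 4 libraries left without the ADAR2 WT and ADAR2 E396A libraries of donor A. These points share donors, library preparation and scaling, and the r is a description of 6 libraries. With total assigned reads as the scale it was 0.986.

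Among 6016 named genes with a mean of at least 500 normalized read counts, Malat1 was the gene most like Neat1 by Pearson r, and Neat1 the one most like Malat1. Next for Neat1 were Vps54, a subunit of a tethering complex of endosome-to-Golgi transport (r = 0.939), and Mau2, a cohesin loading factor (r = 0.896). Next for Malat1 were Vps54 (r = 0.920) and Clk4, a kinase of splicing factors (r = 0.902). Vps54 ran from 2861 to 3136 normalized read counts and Clk4 from 764 to 890, far narrower than Malat1. These genes were picked as the highest of 6016 values of r over 6 libraries.

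The levels of 3 other nuclear RNAs, picked by name and not by a rule, were set beside them. Tug1 was at 929, 963 and 1035 normalized read counts in donor A with the empty vector, ADAR2 WT and ADAR2 E396A, and at 977, 1040 and 1018 in donor B. It was low and high in the same libraries, 3 of each, as Neat1, over a narrower range, with an r of 0.891 to Neat1 and 0.827 to Malat1. Kcnq1ot1, the noncoding RNA of an imprinted cluster, was at 610, 602 and 821 in donor A with the empty vector, ADAR2 WT and ADAR2 E396A, and at 818, 751 and 798 in donor B. In donor A it stood high with ADAR2 E396A as Neat1 and Malat1 did, and in donor B it did not follow them (r = 0.649 to Neat1 over the 6 libraries). Rn7sk, the RNA that restrains the elongation factor P-TEFb, was at 30199 to 31775 in donor A and at 21806 to 27196 in donor B, so it differed more by donor than by group. Its r was 0.147 to Neat1 and 0.165 to Malat1. Xist, taken up below, had an r of -0.175 to Neat1 and -0.041 to Malat1.

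**Figure D4:**
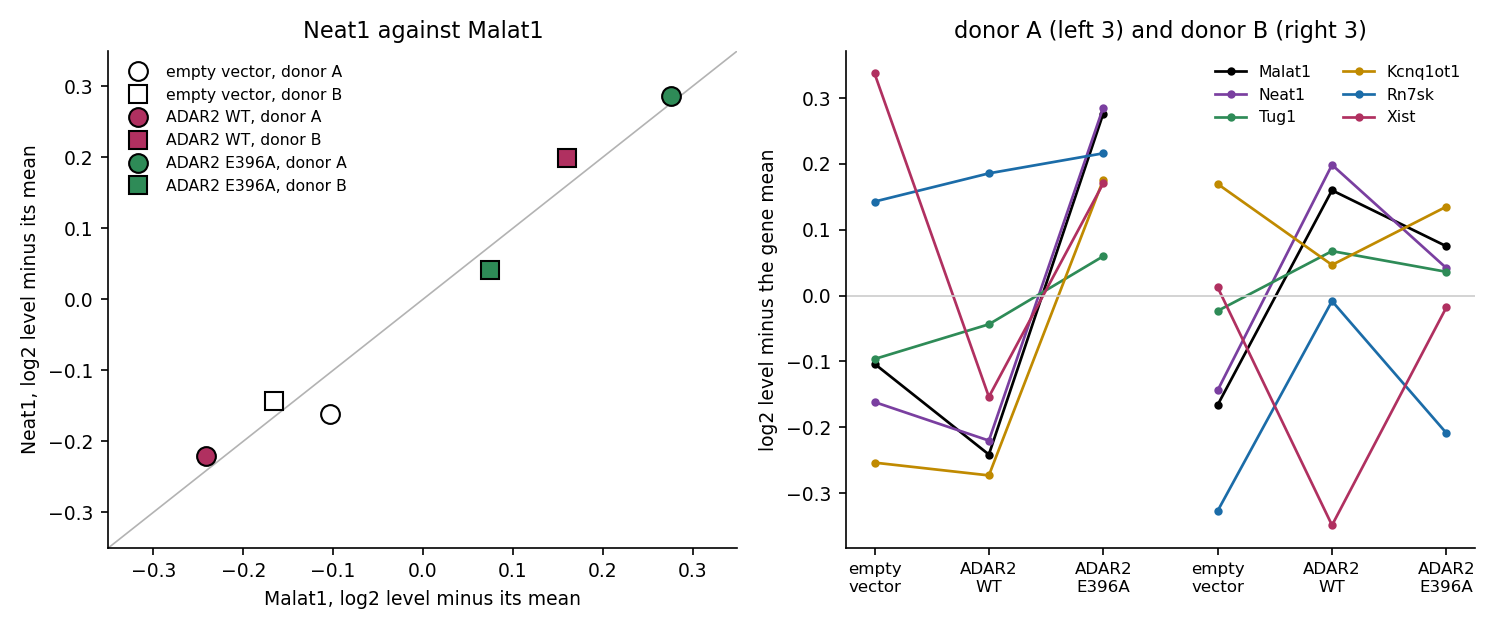
Left, log2 level of Neat1 against Malat1 in the 6 libraries, each minus its mean, with the line of equal values. Right, log2 level minus the gene's mean for 6 nuclear RNAs in each library. The Neat1 and Malat1 lines lie together in both donors (r = 0.984), Tug1 is low and high in the same libraries as Neat1 over a narrower range, and the lines of Xist, Rn7sk and Kcnq1ot1 take other courses.

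Of 24 genes listed as other nuclear long noncoding RNAs, 18 were tested, and with ADAR2 WT 1 rose and 1 fell. The list also takes in Norad and short RNAs such as Rn7sk (331 exon bases) and Rpph1 (319). Its counts are therefore not strictly those of nuclear long noncoding RNAs. Peg13, an imprinted noncoding RNA, rose by 0.91 on the log2 scale (SE 0.14, limma adjusted p = 0.0371), from 219 and 316 normalized read counts with the empty vector to 497 and 492. It was at 300 and 336 with ADAR2 E396A. Xist, the RNA that silences an X chromosome, fell by 0.43 (SE 0.06, limma adjusted p = 0.0351), from 11868 and 9475 to 8443 and 7375, and was at 10570 and 9277 with ADAR2 E396A. Both calls were lost without the donor block (limma adjusted p = 0.634 and 0.755) and without donor A's empty-vector library (0.0964 and 0.0512), donor A's ADAR2 WT library (0.813 and 0.853) or that of donor B (0.180 and 0.412). The Peg13 call was also lost among genes with a mean of at least 50 normalized read counts (limma adjusted p = 0.0503). Tsix, the antisense partner of Xist, had a mean of 0.193 normalized read counts beside 9501 for Xist. No strand setting is given in the sources used here, so reads where they overlap cannot be told apart. None of the 18 passed with ADAR2 E396A or between the constructs in this fit. Between the constructs Xist and Peg13 each passed under 5 of 18 alternatives. Xist did so with DESeq2 (adjusted p = 0.0243) and with the 4 libraries alone (limma adjusted p = 0.0255). Peg13 did so with the 4 libraries alone (limma adjusted p = 0.0347), and the others were fits that left out 1 library, either empty-vector library or donor A's ADAR2 E396A library for both genes and also that of donor B for Peg13. Their median log2 fold change was -0.0068 with ADAR2 WT and 0.10 with ADAR2 E396A, beside -0.0025 and -0.0095 over all tested genes. Pvt1, which had the next largest estimate among the better measured genes of the list, was at -0.30 with ADAR2 WT (SE 0.13, limma adjusted p = 0.332).

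The other proteins of the paraspeckle were then read off the same fit. Of 34 such genes, all were tested and none passed in any comparison in this fit. Under the 18 alternatives 0 to 4 passed with ADAR2 WT, 0 with ADAR2 E396A and 0 to 2 between the constructs. With ADAR2 WT 30 of the 34 had a positive estimate, 88.2% beside 49.6% of all tested genes, and the median was 0.064 beside -0.0025. Both ADAR2 WT libraries lay above both empty-vector libraries for 15 of them, 44.1% beside 18.7% of all tested genes. With ADAR2 E396A 26 had a positive estimate, 76.5% beside 46.9%, and 9 lay above in both libraries, 26.5% beside 11.5%. The median there was 0.061 beside -0.0095. Dazap1, an RNA-binding protein needed for paraspeckles, had the largest estimate and was at 1584 and 1611 normalized read counts in the empty-vector libraries, 2050 and 2061 under ADAR2 WT, and 2031 and 1891 under ADAR2 E396A. Its log2 fold change with ADAR2 WT was 0.36 (SE 0.07, limma adjusted p = 0.0698). Rbm25, a splicing regulator, had 0.34 (limma adjusted p = 0.0612), and Hnrnpm 0.29 (limma adjusted p = 0.159). Rbm25 passed under 8 of the 18 alternatives, among them DESeq2 (adjusted p = 0.0193), TMM factors (limma adjusted p = 0.0479), total reads as the scale (0.0477) and no filter on low values (0.0445). Dazap1 and Hnrnpm each passed under 4, which were the 4 libraries alone and the fits without donor B's empty-vector library or either ADAR2 E396A library, and Rbm25 passed under these too.

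Nuclear speckle genes, the company of Malat1, gave a like count. None of 29 passed in any comparison in this fit. Under the 18 alternatives 0 to 5 passed with ADAR2 WT and 0 in the other comparisons. With ADAR2 WT 25 had a positive estimate, 86.2% beside 49.6% of all tested genes, with a median of 0.088, and 11 lay above the empty vector in both libraries, 37.9% beside 18.7%. With ADAR2 E396A 22 had a positive estimate, 75.9% beside 46.9%, with a median of 0.034, and 7 lay above in both libraries, 24.1% beside 11.5%. Pnn, the splicing protein pinin, had the largest, 0.34 (SE 0.07, limma adjusted p = 0.0798), followed by Prpf38b and Luc7l3 at 0.25 each (limma adjusted p = 0.152 and 0.145). Pnn passed under 4 alternatives, Luc7l3 under 3 and Prpf38b under 2, each time with the 4 libraries alone or with 1 library left out. The excess with ADAR2 WT was not limited to these lists. Of the tested genes beside Neat1 and Malat1, taken up below, 41.7% lay above in both libraries and 58.3% had a positive estimate. The shares were 40% and 86.7% for genes handling edited RNA, Adarb1 included, and 35.3% and 64.7% for the AU-rich element list. Other nuclear long noncoding RNAs had 16.7% above in both. Genes of such lists vary together, so these shares are no more than a description.

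Of 15 genes for handling and nuclear retention of edited RNA, Adarb1 and Zfr rose with ADAR2 WT, and with ADAR2 E396A Adarb1 rose and Zfr missed the threshold. Zfr, a zinc finger protein gene for binding double-stranded RNA, was at 2730 and 3000 normalized read counts in the empty-vector libraries, 4671 and 4778 under ADAR2 WT, and 4134 and 4352 under ADAR2 E396A. Its log2 fold change was 0.72 (limma adjusted p = 0.0049) and 0.57 (limma adjusted p = 0.0712). The call with ADAR2 WT was lost without the donor block (limma adjusted p = 0.222) and without either ADAR2 WT library (0.560 and 0.116). That with ADAR2 E396A was gained under 9 of 18 alternatives, which were edgeR (adjusted p = 0.0483), DESeq2 (adjusted p = 7.31e-06), TMM factors (limma adjusted p = 0.0408), size factors from nuclear protein-coding genes (0.0442), no filter on low values (0.0200), and leaving out either empty-vector library (0.0483 and 0.0232) or either ADAR2 E396A library (0.000783 and 4.97e-06). The difference between the constructs, 0.16, did not pass (limma adjusted p = 0.372). Slc7a2, whose locus gives the known nuclear-retained edited transcript of the paraspeckle, was low and uneven. It was at 45.0 and 132 normalized read counts in the empty-vector libraries, 291 and 185 under ADAR2 WT, and 170 and 32.4 under ADAR2 E396A. Its log2 fold change with ADAR2 WT was 1.58 (SE 0.69, 95% interval -0.0032 to 3.15, limma adjusted p = 0.355). It passed with the 4 libraries alone and without donor B's empty-vector library or either ADAR2 E396A library. With ADAR2 E396A it was at -1.45 without donor A's library of that construct and at 1.36 without donor B's, and passed in both (limma adjusted p = 0.0365 and 1.61e-06), so it has no stable direction there. Between the constructs it passed without either empty-vector library or donor A's ADAR2 E396A library.

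Elavl1 is the only member of its family measured well in these cells. Its relatives Elavl2, Elavl3 and Elavl4 did not reach the level needed for testing. Of 20 genes for the family and for other proteins that bind AU-rich or related elements, 17 were tested and 1 passed with ADAR2 WT. Hnrnpd, also called AUF1, was at 2797 and 2662 normalized read counts in the empty-vector libraries, 3718 and 3561 under ADAR2 WT, and 3355 and 3168 under ADAR2 E396A. It rose by 0.42 with ADAR2 WT (SE 0.06, limma adjusted p = 0.0351), a call lost without the donor block (limma adjusted p = 0.583) and without donor A's empty-vector library (0.0512) or either ADAR2 WT library (0.813 and 0.469). Zfp36l2, a factor of AU-rich mRNA decay, had 0.31 (limma adjusted p = 0.159) and Syncrip 0.15 (limma adjusted p = 0.357). Zfp36l2 passed with ADAR2 WT with the 4 libraries alone and in 3 fits that left out 1 library, and between the constructs in 3 such fits. The list had a median of 0.014 with ADAR2 WT and 0.0060 with ADAR2 E396A.

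Genes around Neat1 and Malat1 were checked because the RNAs lie 22035 bases apart on chromosome 19. Of 13 neighbours found in the annotation, 12 were tested and none passed in any comparison, in this fit or under the 18 alternatives. Their median log2 fold change was 0.030 with ADAR2 WT and -0.025 with ADAR2 E396A. Frmd8, which lies beside Neat1, was at 1744 and 1351 normalized read counts in the empty-vector libraries, 1404 and 1257 under ADAR2 WT, and 1505 and 1385 under ADAR2 E396A. It had log2 fold changes of -0.21 and -0.089 (limma adjusted p = 0.315 and 0.999). Dpf2 had 0.17 with ADAR2 WT (limma adjusted p = 0.359) and Kcnk7 -0.29 (limma adjusted p = 0.490). None of these 3 had its lowest and highest levels in the same libraries as Neat1.

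**Figure D5:**
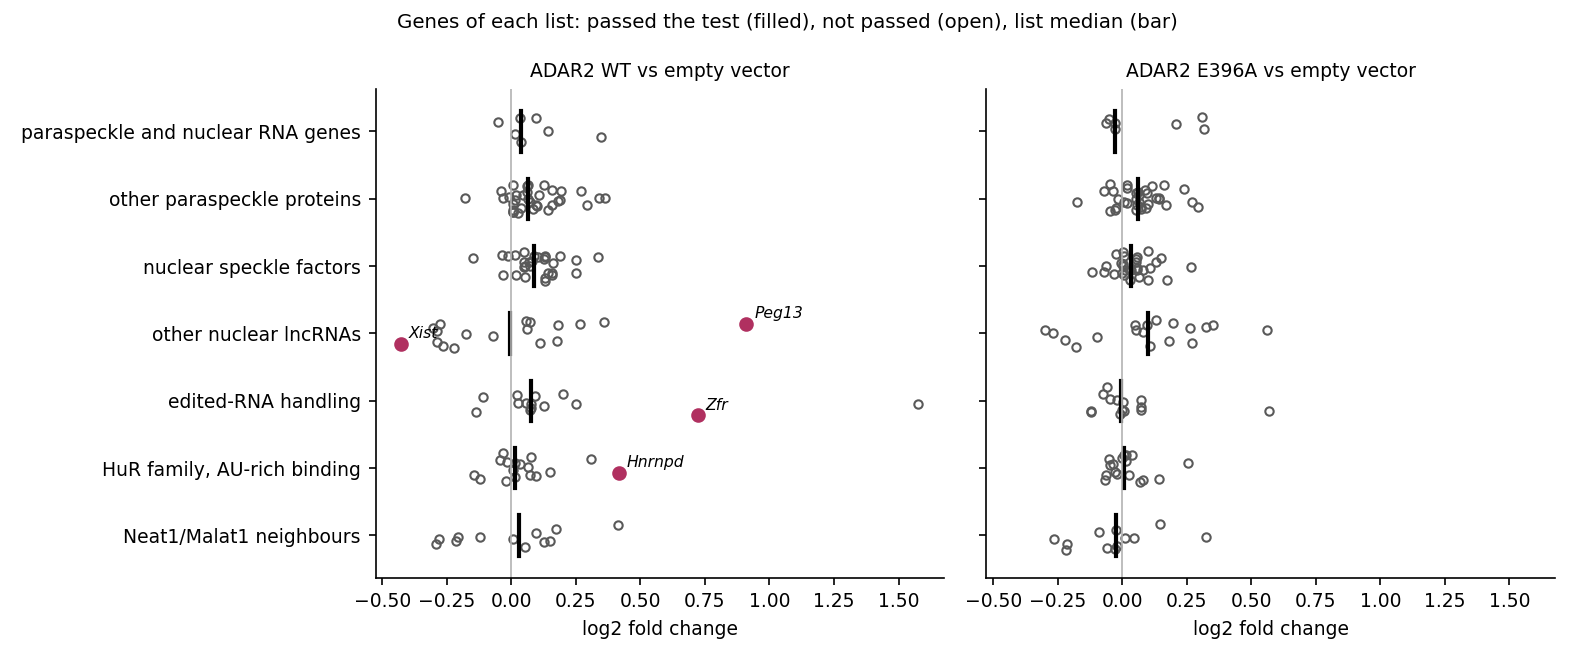
Log2 fold change of each tested gene of 7 lists with ADAR2 WT (left) and ADAR2 E396A (right) against the empty vector, Adarb1 left out. Filled points passed limma's test over all genes, open points did not, and bars are medians. Peg13, Zfr and Hnrnpd pass on the higher side and Xist on the lower side with ADAR2 WT, and no point passes with ADAR2 E396A.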

How the data were processed

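The labels' protocols describe sequencing of ribosome-depleted RNA from 6 mouse Th17 cultures. The tools were STAR 2.6.1a, featureCounts and DESeq2 1.18.1 on mm10, per the submitters' processing notes. No annotation or strand setting is given in the sources used here. One table per construct was deposited by the authors, with normalized counts (a signal, at least 0) for 4 libraries. Per the file headers, each also holds DESeq2 log2 fold changes, Wald statistics (a score), p-values and adjusted p-values. Those fold changes are empty vector over construct, and their sign was turned here. Every library value came out whole, within 0.001 of a read, when divided by the value of 1 read, and these recovered counts were used. All 55450 gene IDs matched GENCODE vM21.

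Library columns carry no sample label. Columns that both tables share were read as empty vector and the others as the construct that their table is named for. Donor pairs were those under which a DESeq2 refit returned the deposited Wald statistics, with largest differences of 3.43e-12 and 5.72e-05; crossed pairs gave 13.8 and 6.08. It is not known which replicate number in the labels is donor A.

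Counts were scaled by median-of-ratios factors of the 6 libraries, filtered with filterByExpr of edgeR 4.0.16, and tested with limma 3.58.1 (R 4.3.3) after adding a pseudocount of 1 and taking log2. The fit had group and donor as terms, 2 residual degrees of freedom before moderation, and Benjamini-Hochberg adjustment over all 14958 tested genes at 0.05. On this scale the change of a gene with few reads is understated.

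limma was first run without a mean-variance trend, and then no gene passed in any comparison, Adarb1 included. That version also failed to recover changed genes in simulated counts, which held no difference between donors. A trend was adopted after this, with these results and earlier results of the same data known, and every call here rests on that choice. The members and lists were likewise chosen with earlier results known. Named list genes were up to 4 passing per list or, where fewer than 3 passed with ADAR2 WT, those with the largest change at a mean of at least 50. Alternatives were edgeR, DESeq2 1.42.0, other scalings, filters and pseudocounts, no donor block, 4 libraries alone, and each library left out.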

Additional observations from a re-analysis of the deposited data

How the results depend on the processing

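The counts of genes passing depended heavily on the settings, and those of the 7 members less so. In the order ADAR2 WT against empty vector, ADAR2 E396A against empty vector, and ADAR2 WT against ADAR2 E396A, the main counts were 122, 2 and 10 genes and 0 members each. With no replicate block for the donor pairing, 2, 1 and 0 genes passed. DESeq2 gave 212, 7 and 110, and edgeR 136, 3 and 10. Without the filter on low values 220, 5 and 102 passed, and 58, 2 and 3 where genes needed a mean of 50 or more. TMM factors gave 183, 3 and 39 (12 higher and 27 lower in the last, against 2 and 8). With the 4 libraries of a comparison alone 1237, 1 and 194 passed, and 1 member (Pspc1) in the first. limma without a mean-variance trend, an alternative named after the data were seen, gave 0, 0 and 0. Leaving out each library in turn gave 1 to 1217, 1 to 127 and 0 to 846 genes, and 0 to 1, 0 to 2 and 0 to 2 members. The cause of these shifts was not tested. Apart from the settings named here with a member count above 0, no member passed under any alternative run.

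Some small log2 fold changes took the other sign. With total assigned reads as the scale, Nono and Dpf2 with ADAR2 E396A were at 4.1e-05 and 0.0046, and with edgeR Slc7a2 was at 0.0116. When each library was left out in turn, the ADAR2 WT estimates against empty vector ran from -0.12 to 0.41 for Neat1, -0.17 to 0.36 for Malat1, -0.051 to 0.12 for Sfpq and -0.038 to 0.064 for Matr3. Those of ADAR2 E396A against empty vector ran from -0.061 to 0.0086 for Nono, -0.15 to 0.026 for Sfpq, -0.12 to 0.064 for Matr3, -0.064 to 0.18 for Hnrnpm, -1.57 to 1.47 for Slc7a2, -0.19 to 0.094 for Zfp36l2, -0.20 to 0.024 for Frmd8 and -0.046 to 0.00073 for Dpf2. Between the constructs they ran from -0.44 to 0.092 for Neat1, -0.48 to 0.051 for Malat1, -0.050 to 0.13 for Matr3, -0.046 to 0.044 for Elavl1, -0.19 to 0.033 for Pvt1 and -0.19 to 0.024 for Kcnk7. Pspc1 kept its sign in all 3 comparisons under every alternative run. With 2 libraries a group, differences of the size seen for Neat1 and Malat1 could not be separated from the spread.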
